A study of Mus musculus with 4 samples.

Results

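Ret, 3 of its GFRα co-receptors and 5 receptors or receptor subunits for gut neuropeptides were followed in lymphoid tissue inducer (LTi) cells of the mouse gut. The 9 genes were chosen by symbol among the 27179 genes of the table, as Ret, Gfra1, Gfra2, Gfra3, Vipr1, Vipr2, Nmur1, Calcrl and Ramp1, because Ret was far lower in the Gata3-KO libraries than in the control libraries. The contrast of genotypes is therefore given for them as a description and without p-values. Where members are said to be called, this too is a description from which nothing is read. All 9 had reads in at least 1 library and 7 had enough reads to enter the fit across all genes, while Gfra2 and Nmur1 did not.

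Gata3-KO cells came from Gata3fl/fl-VavCre mice (2 libraries) and control (Ctrl) cells from Gata3+/+ mice (2 libraries), all of the C57BL/6 strain. VavCre is made in blood cells, so Gata3, which codes for a zinc finger factor needed by helper T and innate lymphoid lineages, can be lost in all blood lineages and not in LTi cells alone. LTi cells are innate lymphoid cells that make lymphotoxin and interleukin 22, and they were sorted from small intestine lamina propria as lineage-negative CD127+ CCR6+ cells without KLRG1, NK1.1 and NKp46. The labels give no ages, and nothing says that the replicates came from separate animals, so p-values measure only the spread between these libraries, which may be technical. The Gata3-KO libraries held 24315878 and 23973995 reads, against 14294708 and 12670034 reads in the Ctrl libraries.

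RET is a receptor tyrosine kinase that responds to ligands of the GDNF family once these are bound by a GFRα co-receptor held at the cell surface. In the mouse intestine, ligands of this family made by glial cells act through RET on innate lymphoid cells and raise interleukin 22, and Ret is also needed for Peyer's patches to form. Other members pass signals from enteric and sensory neurons. VIPR1 and VIPR2 bind vasoactive intestinal peptide, NMUR1 binds neuromedin U, and CALCRL with RAMP1 forms the receptor for calcitonin gene-related peptide (CGRP).

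Starts of transcription are shown for the members that were lower in both Gata3-KO libraries or that held a GATA box, the short sequence bound by GATA factors. RefSeq windows (GRCm38.p6) matched 6 of the 9 members, and Ret, Gfra2 and Gfra3 were not among them. The box was read as GATA with A or T before it and A or G after it (AGATAA, for example). It was searched on both strands in the 250 bases before each start, with no other motif. By the gene coordinates given below, the Vipr2, Gfra1 and downstream Nmur1 windows lay inside the gene and the Calcrl window partly inside it. For these, the search did not cover only sequence upstream of the whole gene. A match was found in 2 of 7 member windows, both of Nmur1, and in 26.5% of all 32851 windows of that length. The windows below read 5′ to 3′ on the strand of the gene, with matched letters in capitals. They are Vipr2 at chr12:116077476-116077725 (plus strand), Calcrl at chr2:84425267-84425516 (minus strand) and Nmur1 at chr1:86389362-86389611 and chr1:86388142-86388391 (minus strand).
Vipr2: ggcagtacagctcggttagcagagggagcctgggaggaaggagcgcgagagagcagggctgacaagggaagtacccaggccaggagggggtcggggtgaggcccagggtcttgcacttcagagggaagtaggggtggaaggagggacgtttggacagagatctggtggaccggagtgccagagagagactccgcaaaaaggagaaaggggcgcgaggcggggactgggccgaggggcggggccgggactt
Calcrl: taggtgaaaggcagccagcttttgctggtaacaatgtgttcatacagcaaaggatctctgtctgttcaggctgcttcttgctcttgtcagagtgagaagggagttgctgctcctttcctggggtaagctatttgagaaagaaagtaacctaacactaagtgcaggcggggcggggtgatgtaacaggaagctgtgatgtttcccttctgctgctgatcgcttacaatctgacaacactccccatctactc
Nmur1, upstream start: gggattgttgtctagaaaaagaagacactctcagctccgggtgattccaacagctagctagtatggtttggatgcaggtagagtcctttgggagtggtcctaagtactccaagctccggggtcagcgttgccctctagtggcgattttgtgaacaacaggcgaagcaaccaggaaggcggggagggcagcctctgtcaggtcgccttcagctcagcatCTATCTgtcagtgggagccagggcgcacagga
Nmur1, downstream start: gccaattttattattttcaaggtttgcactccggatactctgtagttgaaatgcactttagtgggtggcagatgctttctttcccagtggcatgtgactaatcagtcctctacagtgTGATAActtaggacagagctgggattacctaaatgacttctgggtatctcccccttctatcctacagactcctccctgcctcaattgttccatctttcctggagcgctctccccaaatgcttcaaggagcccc
The match lay 32 bases before the upstream start of Nmur1, on the opposite strand, and 133 bases before the downstream start. No GATA box of these letters stood in the Vipr2, Calcrl, Gfra1, Vipr1 or Ramp1 windows, which says nothing of sites elsewhere or of the factor. The Vipr1 window held 30 CpG dinucleotides and the Vipr2 window 13, against 3 in Calcrl and a median of 6 over all windows.

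Gata3 itself was read at 34.5 and 23.3 RPKM (reads per kilobase of gene, scaled to the size of the library) in the Gata3-KO libraries and at 84.3 and 50.7 RPKM in the Ctrl libraries. The groups did not overlap, and the difference did not pass the test (log2 difference −1.18 ± 0.36 SE, adjusted p = 0.091 in limma). These values cover the whole gene, and exons outside the floxed ones can still be transcribed after a deletion, which limits what they say of the labels.

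Ret, the signalling chain of the receptor, had the largest difference between genotypes among the 7 members in the fit. It was at 1.19 and 0.778 RPKM in the Gata3-KO libraries, from 213 and 137 reads, and at 73.3 and 36.8 RPKM in the Ctrl libraries, from 7690 and 3426 reads. Both Gata3-KO libraries lay far below both Ctrl libraries, and Ctrl replicate 1 was the highest. The means were 0.986 ± 0.293 RPKM in Gata3-KO and 55.1 ± 25.8 RPKM in Ctrl cells (SD, n = 2 each), a 55.8-fold lower mean in Gata3-KO cells. Ret (Entrez 19713, chr6:118151748-118197744, minus strand, GRCm38.p6) had the third-lowest log2 difference of the 14313 genes in the fit, −4.75 ± 0.40 (SE) on the log2(RPKM + 1) scale. After median-ratio scaling, which sets the typical gene equal between libraries, it was at 1.02 and 0.603 RPKM in Gata3-KO and at 85.2 and 47.9 RPKM in Ctrl libraries, a log2 difference of −5.17. Leaving out each library in turn gave −4.26 to −5.23.

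Ret is read here per sorted population, so fewer Ret-expressing cells and less Ret RNA per cell cannot be told apart. Il23r, a cytokine receptor of LTi cells, stood at 55.5 and 68.0 RPKM in Gata3-KO and at 66.4 and 41.8 RPKM in Ctrl libraries, so the groups overlapped. Within each library, Ret was 0.0215 and 0.0115 times the level of Il23r in Gata3-KO and 1.10 and 0.88 times in Ctrl libraries. Against Cxcr5, the receptor that guides LTi cells to lymphoid tissue, the ratio was 0.0185 and 0.00994 in Gata3-KO and 0.846 and 0.76 in Ctrl libraries. Ret was 0.0125 and 0.00581 times the level of Kit, a growth factor receptor, in Gata3-KO and 0.475 and 0.252 times in Ctrl libraries. Against Ccr6, a gene of the sort gate, it was 0.0077 and 0.00442 in Gata3-KO and 0.503 and 0.581 in Ctrl libraries. Of the 18 LTi and ILC3 genes, 6 were themselves lower in both Gata3-KO libraries (Il22, Cd4, Il7r, Kit, Lta and Tnfsf11), beside 7.57% of all tested genes. Another 3, Ccr6 among them, were higher in both, beside 53.9% of all tested genes. The ratios therefore depend on the gene set beside Ret.

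**Figure D1:**
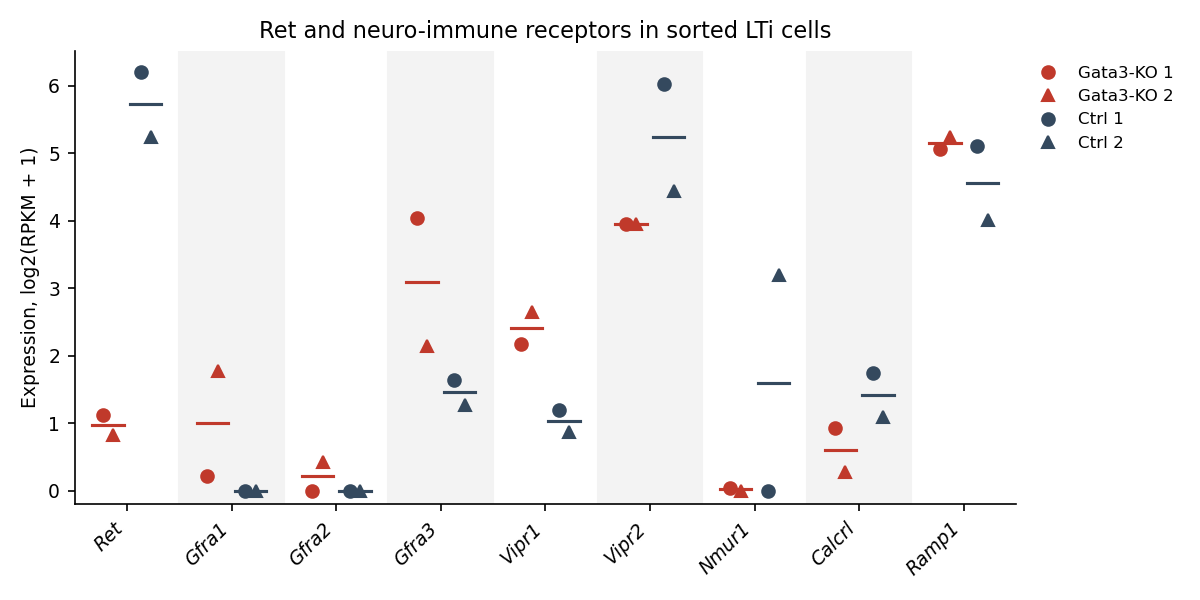
Expression of the 9 genes in each library, as log2(RPKM + 1), with Gata3-KO libraries in red on the left and Ctrl libraries in dark blue on the right of each gene (circles, replicate 1; triangles, replicate 2), and bars at the group means (n = 2). Ret lies at 1.13 and 0.83 in Gata3-KO and at 6.21 and 5.24 in Ctrl libraries, Vipr2 and Calcrl are also lower in both Gata3-KO libraries, and Nmur1 is high in Ctrl replicate 2 alone.

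The GFRα co-receptors that present ligand to RET were low or without reads in Ctrl cells. Gfra1, which binds GDNF (chr19:58235581-58455946, minus strand), had 13 and 189 reads in the Gata3-KO libraries, 0.166 and 2.45 RPKM, and no reads in either Ctrl library. Gfra2, which binds neurturin (chr14:70890107-70979840, plus strand), had 0 and 29 reads in Gata3-KO and none in Ctrl libraries. A count of 0 allows up to 3 reads, which is 0.0651 and 0.0734 RPKM for Gfra1 and 0.0606 and 0.0684 RPKM for Gfra2 in the Ctrl libraries. The mean of Gfra1 in Gata3-KO cells was at least 18.8-fold higher than the mean of these floors over the Ctrl group, and nearly all of it came from Gata3-KO replicate 2. Its log2 difference was 1.00 ± 0.51 (SE), 0.22 without that library and 1.78 without Gata3-KO replicate 1. Gfra1 entered the fit only through its reads in the Gata3-KO libraries.

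Gfra3, which binds artemin (chr18:34689898-34720387, minus strand), was the co-receptor with reads in every library. It had 754 and 164 reads in the Gata3-KO libraries, 15.6 and 3.43 RPKM, and 60 and 36 reads in the Ctrl libraries, 2.11 and 1.43 RPKM. Both Gata3-KO libraries were above both Ctrl libraries, and they differed 4.53-fold from each other. The log2 difference was 1.64 ± 0.64 (SE), with 0.69 without Gata3-KO replicate 1 and 2.59 without Gata3-KO replicate 2. The read numbers of Gfra3, unlike its RPKM, rest on a gene length taken near that of GENCODE. Per length, Ret was 0.0767 and 0.227 times the level of Gfra3 in Gata3-KO and 34.8 and 25.8 times in Ctrl libraries, so the order of the 2 genes was opposite in the genotypes.

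Among the RET ligands Gdnf, Nrtn, Artn and Pspn, only Nrtn had more than 4 reads in a library. Gdnf had no reads, Artn (artemin) had 1 read in Ctrl replicate 2 and Pspn (persephin) 1 read in Gata3-KO replicate 1 and 4 in Ctrl replicate 1. Nrtn, neurturin, had 17 and 35 reads in Gata3-KO and 1 and 0 in Ctrl libraries, with a log2 difference of 0.97 that did not pass the test (adjusted p = 0.0712 in limma). Of the 10 genes in the list of GDNF family ligands and other GFRα-like receptors, 3 entered the fit and none was called. Gfra4 and Gfral had no reads, and Gdf15, the GFRAL ligand, lay at 6.68 and 6.73 RPKM in Gata3-KO and 2.71 and 0.874 RPKM in Ctrl libraries.

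Of the receptors for vasoactive intestinal peptide, Vipr2 was lower and Vipr1 higher in both Gata3-KO libraries. Vipr2 (chr12:116077420-116148637, plus strand) was at 14.4 and 14.5 RPKM in Gata3-KO and at 64.3 and 20.8 RPKM in Ctrl libraries. The Gata3-KO libraries were alike, while the Ctrl libraries differed 3.09-fold and the lower of them lay near the Gata3-KO values. The means were 14.5 ± 0.015 RPKM in Gata3-KO and 42.6 ± 30.8 RPKM in Ctrl cells (SD, n = 2 each), with a log2 difference of −1.29 ± 0.52 (SE), and −1.85 ± 0.50 after median-ratio scaling. It was −0.50 without Ctrl replicate 1 and −2.08 without Ctrl replicate 2.

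Vipr1 (chr9:121642716-121672954, plus strand) was at 3.49 and 5.28 RPKM in Gata3-KO libraries, from 416 and 620 reads, and at 1.30 and 0.837 RPKM in Ctrl libraries, from 91 and 52 reads. The groups did not overlap, and the log2 difference was 1.37 ± 0.35 (SE), or 0.97 ± 0.31 after median-ratio scaling. Vipr2 was 4.14 and 2.74 times the level of Vipr1 per length in Gata3-KO and 49.5 and 24.9 times in Ctrl libraries, so Vipr2 was the higher VIP receptor in all 4 libraries. Vip and Adcyap1, which code for the peptides that bind these receptors, had no reads. Adcyap1r1, the receptor that prefers the Adcyap1 peptide, had 8 reads in Ctrl replicate 2 and none in the other libraries.

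Nmur1, the neuromedin U receptor, known in the mouse as a receptor of group 2 innate lymphoid cells (ILC2), was read in Ctrl replicate 2 and nearly nowhere else. It had 1 and 0 reads in Gata3-KO libraries and 0 and 126 reads in Ctrl libraries, the last being 8.16 RPKM. The Ctrl libraries thus did not agree, and the gene (chr1:86386242-86389361, minus strand) gives no comparison of genotypes. In that library, of the 12 ILC2 markers, Il5 and Il4 had 0 reads, Il1rl1 1 read and Il13 2 reads. Klrg1, which the sort gate left out, had 4 reads, while Arg1 was at 161 RPKM. The other markers of the list, Ccr8 and Areg among them, are given for that library only within its sum of 206 RPKM. The markers named here do not stand for the whole list, and the part of ILC2 in the Nmur1 reads was not tested. The summed level of the 12 ILC2 markers was 314 and 155 RPKM in Gata3-KO and 327 and 206 RPKM in Ctrl libraries, most of it from Areg and Arg1. Of the 8 tested ILC2 markers 2 were called higher (Areg and Bcl11b) and 2 lower (Arg1 and Ccr8), beside 8.25% and 0.685% of all tested genes. Nmu and Nms, the ligand genes, and Nmur2 had no reads.

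Of the CGRP receptor subunits, Calcrl was low and Ramp1 abundant. Calcrl (chr2:84330626-84425405, minus strand), the seven-span subunit, had 104 and 24 reads in Gata3-KO libraries, 0.903 and 0.211 RPKM, and 160 and 69 reads in Ctrl libraries, 2.36 and 1.15 RPKM. The groups did not overlap on the RPKM scale, with a log2 difference of −0.82 ± 0.39 (SE), although Gata3-KO replicate 1 lay close to Ctrl replicate 2. It was −0.50 without Gata3-KO replicate 2 or without Ctrl replicate 1. Ramp1 (chr1:91179822-91225196, plus strand), the accessory subunit that gives the receptor its preference for CGRP, was at 32.4 and 37.2 RPKM in Gata3-KO and 33.6 and 15.1 RPKM in Ctrl libraries, which overlapped. Its log2 difference of 0.60 ± 0.41 (SE) became 0.02 ± 0.36 after median-ratio scaling, 1.15 without Ctrl replicate 1 and 0.05 without Ctrl replicate 2. Per length, Ramp1 was 35.9 and 176 times the level of Calcrl in Gata3-KO and 14.2 and 13.2 times in Ctrl libraries.

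Ramp3, which turns CALCRL into a receptor for adrenomedullin, was the most abundant gene of the list of other neuropeptide receptors. It was at 615 and 717 RPKM in Gata3-KO and at 2987 and 1416 RPKM in Ctrl libraries, without overlap, and the log2 difference of −1.63 did not pass the test (adjusted p = 0.0699 in limma, and 0.0633 after median-ratio scaling). Ramp3 was 19 and 19.3 times the level of Ramp1 in Gata3-KO and 88.9 and 93.7 times in Ctrl libraries. Ramp2 had at most 13 reads in any library. Adm, adrenomedullin, was at 20.6 and 29.7 RPKM in Gata3-KO and 23.2 and 5.83 RPKM in Ctrl libraries. Calca, the gene for CGRP and calcitonin, was named after its values were seen, and lay at 0.939 and 1.06 RPKM in Gata3-KO and 15.1 and 4.56 RPKM in Ctrl libraries. Its log2 difference of −2.24 ± 0.54 (SE) did not pass the test (adjusted p = 0.0547 in limma). Ackr3, a scavenging receptor that also takes up adrenomedullin, came next in the list, at 61.7 and 141 RPKM in Gata3-KO and 49.0 and 21.5 RPKM in Ctrl libraries, and was not called. None of the 9 tested genes of this list was called, and 21 of its 47 genes had no reads in any library.

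By mean level, the order in Ctrl cells was Ret, Vipr2 and Ramp1 (24.4 RPKM), followed at a distance by Nmur1, Gfra3, Calcrl and Vipr1. Vipr2 overlapped both Ret and Ramp1, while the lower Ret value, 36.8 RPKM, lay just above the higher Ramp1 value, 33.6 RPKM. None of the other members reached these 3, and each of the other neighbours in that order overlapped. In Gata3-KO cells Ramp1 came first at 34.8 ± 3.37 RPKM and Vipr2 second, with no overlap, followed by Gfra3, Vipr1, Gfra1 (1.31 ± 1.61 RPKM), Ret and Calcrl. Of these lower neighbours only Vipr1 and Gfra1 did not overlap. Ret, Vipr2, Ramp1 and Ramp3 were all about 2 to 3 times as high in Ctrl replicate 1 as in Ctrl replicate 2 (log2 differences of 0.97, 1.58, 1.10 and 1.08). The median of the 4755 tested genes with a mean of at least 10 RPKM was 0.17, and 6.46% of them reached 1 log2 unit, so the spread of these receptors between the control libraries was wide.

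Of the 7 members in the fit, 1 (Ret) was called at an adjusted p under 0.05 in limma, against 8.94% of all 14313 tested genes (8.25% higher, 0.685% lower), and nothing is read from that count since Ret was chosen on this contrast. Likewise 1 of 7 was called after median-ratio scaling, against 1.01% of tested genes (0.58% higher, 0.433% lower), with limma-voom, against 1.51% (1.24% higher, 0.265% lower), and with both together, against 0.629% (0.175% higher, 0.454% lower). Ret, Vipr2 and Calcrl were lower in both Gata3-KO than in both Ctrl libraries, as were 7.57% of tested genes, and Gfra1, Gfra3 and Vipr1 were higher, as were 53.9%. The median tested gene lay 0.43 log2 units higher in Gata3-KO on the deposited scale. After median-ratio scaling the same 6 members kept their directions without overlap, beside 25.4% of tested genes lower and 29.8% higher. Relative to the median gene, the members lay at −5.18 for Ret, −1.72 for Vipr2, −1.26 for Calcrl, 0.16 for Ramp1, 0.57 for Gfra1, 0.94 for Vipr1 and 1.21 for Gfra3.

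**Figure D2:**
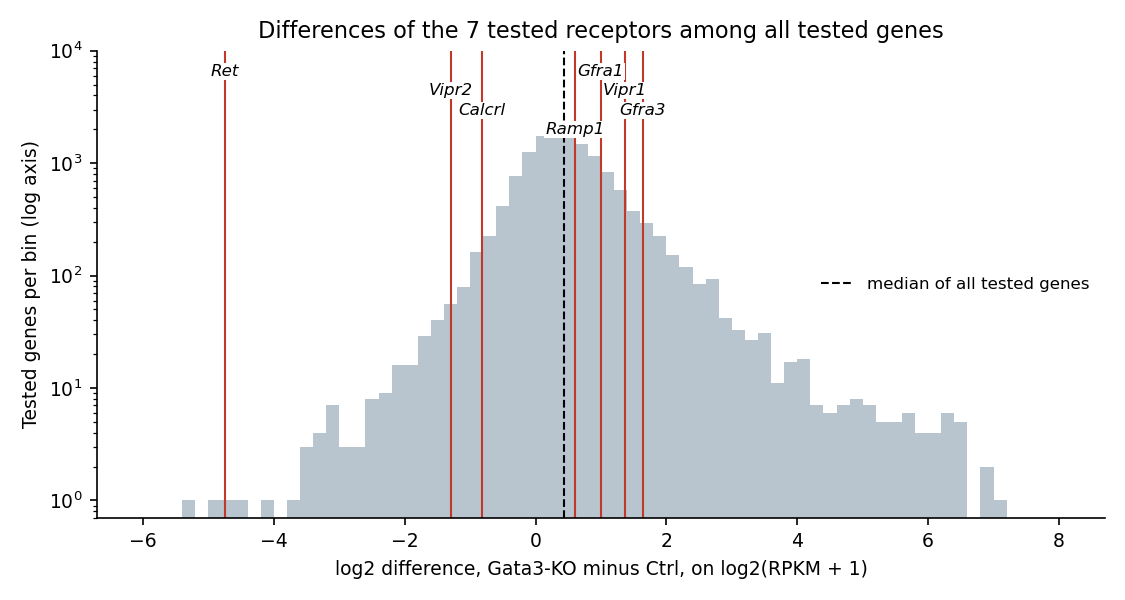
Distribution of log2 differences (Gata3-KO minus Ctrl, horizontal axis, on log2(RPKM + 1)) over the 14313 tested genes, with the number of genes per bin on a log axis, red lines for the 7 tested receptors and a dashed line at the median of 0.43. Ret lies at −4.75 in the far lower tail, Vipr2 and Calcrl on the lower side, and Ramp1, Gfra1, Vipr1 and Gfra3 at or above the median.

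Markers of other cells differed between the same libraries. The 18 LTi and ILC3 genes were all in the fit, with 0 higher and 2 lower (Il22 and Cd4), and their summed level was 1527 and 1938 RPKM in Gata3-KO and 4431 and 2983 RPKM in Ctrl libraries. Of 12 B and plasma cell markers 11 were called higher, of 12 epithelial markers 9, of 11 tested T cell markers 5 and of 9 tested enteroendocrine markers 5, and none lower. Over all tested genes 8.25% were called higher and 0.685% lower, and 0.58% and 0.433% after median-ratio scaling. Summed levels were 3761 and 2151 RPKM in Gata3-KO and 287 and 452 RPKM in Ctrl libraries for B and plasma cells, 1805 and 2627 against 457 and 276 RPKM for epithelium, and 745 and 366 against 103 and 90.6 RPKM for T cells. After median-ratio scaling 1 B cell, 5 epithelial and none of the T cell and enteroendocrine markers were called, and without any 1 library none of all markers. Gfra3 and Vipr1 were higher in the same Gata3-KO libraries, and the part of these cells in their levels was not tested.

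Enteroendocrine markers, of hormone-making cells of the epithelium, summed to 319 and 254 RPKM in Gata3-KO and to 33.0 and 4.07 RPKM in Ctrl libraries. Enteric neurons and glia, the usual places of Ret, Gfra1 and Gfra2 in the gut wall, were checked by their markers. Of 12 neuronal markers, 4 had no reads, Elavl4, Nos1 and Chat among them, and the sums were 3.89 and 5.86 RPKM in Gata3-KO and 0.801 and 0.504 RPKM in Ctrl libraries. Of 10 glial markers 5 had no reads, S100b and Gfap among them, and the sums were 8.09 and 12.1 RPKM in Gata3-KO and 3.48 and 0.851 RPKM in Ctrl libraries, mostly from Erbb3 and Entpd2. Only 1 neuronal marker entered the fit, Tubb3, and it was called higher. Of the 4 glial markers in the fit 1 was called higher, Erbb3. The part of neurons and glia in the Ret, Gfra1 and Gfra2 levels was not tested. Endothelial markers, of cells known for Calcrl, summed to 32.0 and 24.8 RPKM in Gata3-KO and 37.4 and 56.4 RPKM in Ctrl libraries, mostly from Pecam1 and Cldn5. Of the 8 in the fit 1 was called lower (Cldn5) and none higher, beside 0.685% and 8.25% of all tested genes. The part of endothelial cells in the Calcrl level was not tested.

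**Figure D3:**
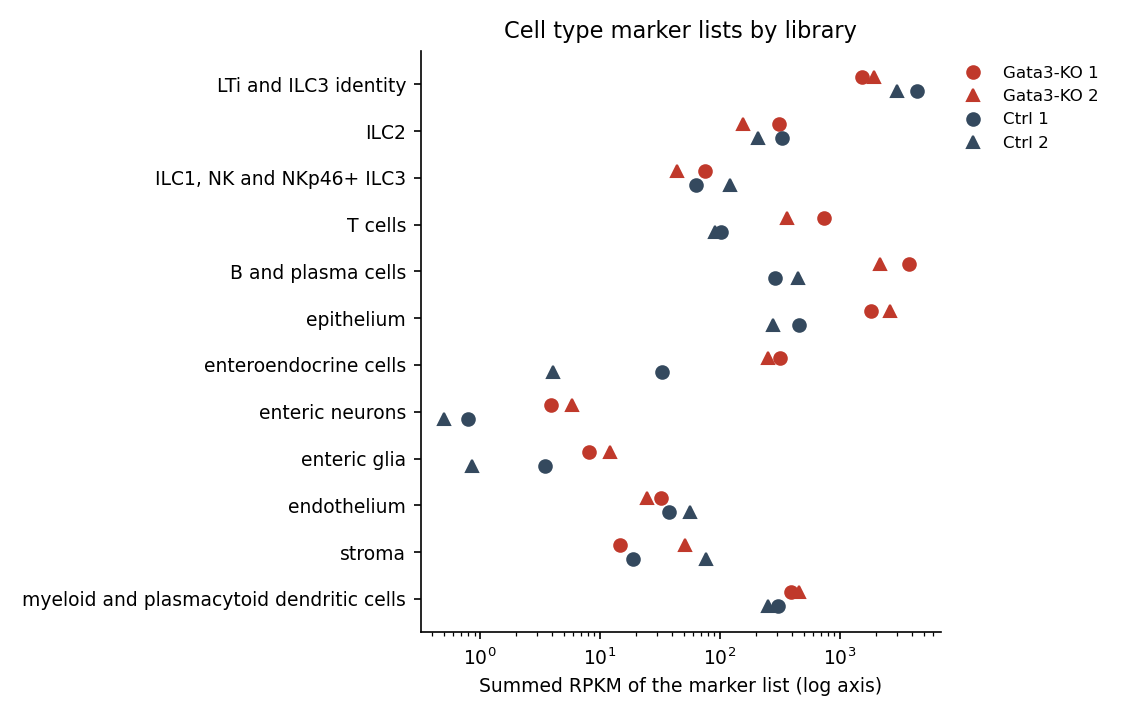
Summed RPKM (log axis) of 12 lists of cell type markers in each library, Gata3-KO in red above Ctrl in dark blue (circles, replicate 1; triangles, replicate 2). B and plasma cell, epithelial, enteroendocrine and T cell lists lie higher in both Gata3-KO libraries, as do the enteric neuron, enteric glia and myeloid lists. The LTi and ILC3 list lies lower, at 1527 and 1938 against 4431 and 2983 RPKM, and so does the endothelial list.

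Of 34 adaptor and feedback genes downstream of RET 32 entered the fit. On the deposited scale 5 were called higher in Gata3-KO cells (Spry1, Dok3, Ptprf, Etv4 and Plcg1) and none lower, where 8.25% of all tested genes were called higher. Without overlap and whatever the test, 18 were higher and 3 lower, beside 53.9% and 7.57% of all tested genes. Spry1, an inhibitor that growth factor receptors induce, was at 19.4 and 16.8 RPKM in Gata3-KO and 1.57 and 2.28 RPKM in Ctrl libraries (log2 difference 2.71 ± 0.31 SE, adjusted p = 0.0161 in limma). Dok3, an adaptor known from B cells and myeloid cells, was at 28.6 and 49.5 RPKM in Gata3-KO and 2.67 and 5.46 RPKM in Ctrl libraries (adjusted p = 0.0202 in limma). Etv4, a transcription factor induced by RET in the kidney of the mouse, had 112 and 58 reads in Gata3-KO and none in Ctrl libraries. It entered the fit only through its reads in the deeper Gata3-KO libraries, so it could only be called higher. Spry2, another inhibitor of the family, was at 9.70 and 4.06 RPKM in Gata3-KO and 55.6 and 18 RPKM in Ctrl libraries, with a log2 difference of −2.16 that did not pass (adjusted p = 0.0878 in limma). Stat3, which RET activates in these cells in the mouse, was abundant in all libraries, at 195 and 209 RPKM in Gata3-KO and 188 and 244 RPKM in Ctrl libraries. The list median equalled that of all tested genes, 0.43, and none of its members was called after median-ratio scaling or without any 1 library. These changes stood in the libraries in which B cell and epithelial markers were higher, whose part was not tested.

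Receptors for classical transmitters were mostly low or not called. Of 57 genes 21 entered the fit, with 0 called higher and 1 lower, beside 8.25% and 0.685% of all tested genes. P2ry1, a receptor for adenosine diphosphate, fell to 1.86 and 4.86 RPKM in Gata3-KO libraries, against 16.5 and 12.1 RPKM in Ctrl libraries (log2 difference −1.88 ± 0.43 SE, adjusted p = 0.0489 in limma), and lay at −2.39 with adjusted p = 0.0633 after median-ratio scaling. It was not called without any 1 library. P2rx4, an ion channel opened by ATP, was at 45.1 and 63.1 RPKM in Gata3-KO and 53.1 and 18.1 RPKM in Ctrl libraries. Adora2a, an adenosine receptor, was at 39.6 and 3.37 RPKM in Gata3-KO and 6.60 and 18.8 RPKM in Ctrl libraries, a wide spread within each genotype. The list median was 0.30, against 0.43 for all tested genes.

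Of 26 neuropeptide genes 11 entered the fit, and 2 were called, against 8.25% higher and 0.685% lower over all tested genes, with Tac1 and Cck called higher and none called lower. Calca, given above, was lower in both Gata3-KO libraries and did not pass. Tac1 and Cck are also made by hormone cells of the gut epithelium, and Cck and Sct stand in the enteroendocrine marker list too. Tac1, which codes for substance P, was at 22.2 and 8.35 RPKM in Gata3-KO and 0.947 and 0.0763 RPKM in Ctrl libraries (adjusted p = 0.026 in limma), and Cck, cholecystokinin, at 9.89 and 17.9 RPKM in Gata3-KO and 0.816 and 0 RPKM in Ctrl libraries (adjusted p = 0.0195 in limma). Gcg, the proglucagon gene, was at 79.0 and 9.71 RPKM in Gata3-KO and 3.21 and 0.145 RPKM in Ctrl libraries and did not pass (adjusted p = 0.145 in limma). Neither Tac1 nor Cck passed after median-ratio scaling or without any 1 library. The enteroendocrine markers given above were higher in the same libraries, and their part was not tested.

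**Figure D4:**
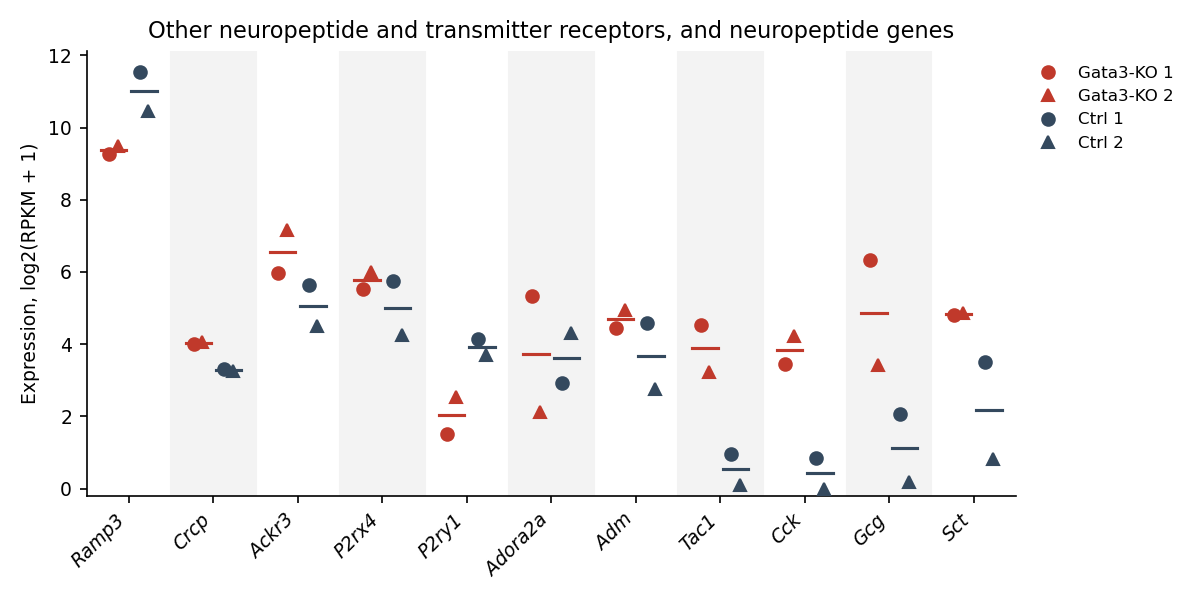
Expression, as log2(RPKM + 1), of other neuropeptide and transmitter receptors and of neuropeptide genes in each library (Gata3-KO in red on the left, Ctrl in dark blue on the right; circles, replicate 1; triangles, replicate 2; bars, group means of n = 2). Ramp3 and P2ry1 are lower in both Gata3-KO libraries, and the hormone genes Tac1, Cck, Gcg and Sct are higher in both Gata3-KO libraries.

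G protein and cyclic AMP genes, through which VIPR2, NMUR1 and CALCRL signal, held 1 gene that fell. Of 40 genes 37 entered the fit, 2 higher (Gna11 and Plcb3) and 1 lower (Gna13). Gna13, a G protein α subunit, was at 25.4 and 23.5 RPKM in Gata3-KO and 66.9 and 53.8 RPKM in Ctrl libraries (log2 difference −1.26 ± 0.27 SE, adjusted p = 0.0423 in limma). It was the only gene of the 7 pathway lists called after median-ratio scaling (−1.84, adjusted p = 0.0469 in limma). Crem, a factor that cyclic AMP induces, was at 237 and 249 RPKM in Gata3-KO and 613 and 335 RPKM in Ctrl libraries and did not pass (adjusted p = 0.168 in limma). The list median was 0.17, against 0.43 for all tested genes. In all, 13 of the 135 tested genes of the 7 lists were called, 11 higher and 2 lower, a share near the 8.94% of all tested genes, so the count says nothing particular of these lists. Leaving out any 1 library left none of them called, and 0 of all 14313 genes, with 2687 at an unadjusted p under 0.05 in limma without Gata3-KO replicate 1, 2404 without Gata3-KO replicate 2, 3618 without Ctrl replicate 1 and 3807 without Ctrl replicate 2. With all libraries limma-voom called 216 of all genes.

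The genes beside Ret on chromosome 6 showed no difference of the size of that of Ret, and were too low in Ctrl libraries to show such a fall. Their Ctrl levels were at most 6.25 RPKM, for Bms1, which is 2.86 as log2(RPKM + 1). Even a full loss of a neighbour would thus have fallen short of the −4.75 of Ret. Whether the fall was confined to Ret in this region was not tested. Toward lower coordinates, Csgalnact2, a chondroitin sulfate enzyme 12.6 kb from Ret, was at 1.16 and 1.65 RPKM in Gata3-KO and 1.80 and 0.431 RPKM in Ctrl libraries, which overlapped. Rasgef1a, 60.2 kb away, had 14 and 56 reads in Gata3-KO and none in Ctrl libraries, and Fxyd4, 214 kb away, 27 and 24 reads in Gata3-KO and 6 in each Ctrl library. Toward higher coordinates, 1700069P05Rik, a non-coding gene, had no reads, and Bms1, a ribosome assembly factor 186 kb away, was at 7.32 and 9.58 RPKM in Gata3-KO and 6.25 and 6.17 RPKM in Ctrl libraries. Zfp248 had 28 and 33 reads in Gata3-KO and 2 and 0 in Ctrl libraries. The log2 differences of the 5 neighbours in the fit ran between 0.26 and 0.51 and none was called, with adjusted p between 0.186 and 0.71 in limma. After median-ratio scaling they ran between −0.14 and 0.42, with Csgalnact2 and Bms1 below 0.

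**Figure D5:**
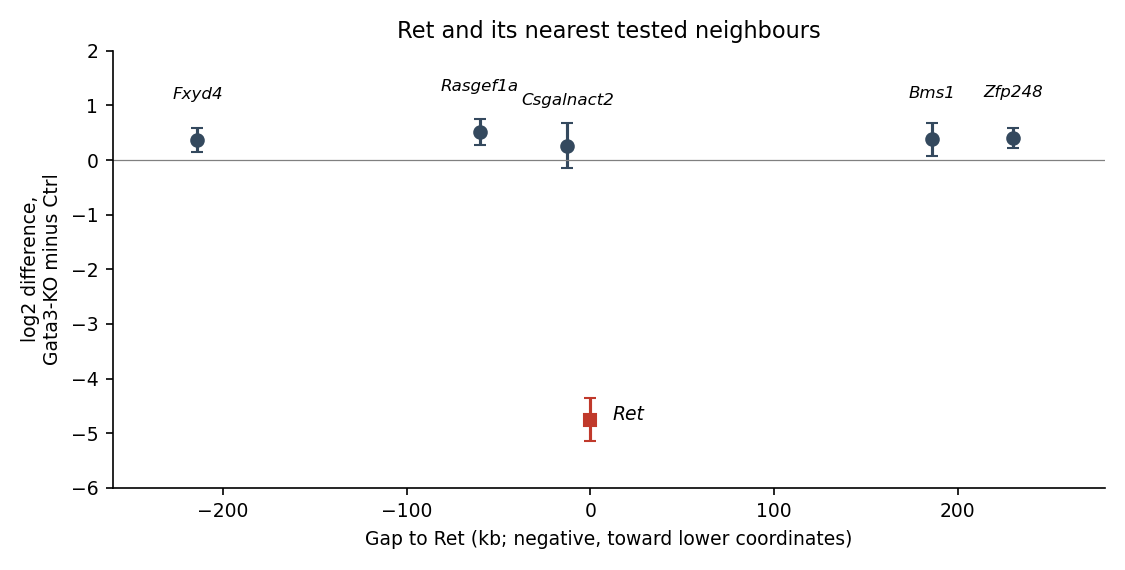
Log2 difference (Gata3-KO minus Ctrl, vertical axis, with SE) of Ret (red square) and the 5 tested genes among its 3 neighbours on each side (dark blue circles) by their gap to Ret in kb. Ret lies at −4.75, while the neighbours lie between 0.26 and 0.51. All 5 were too low in Ctrl libraries to fall as far as Ret on this scale.

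The genes whose levels over the 4 libraries were most like those of Ret were Arg1, Ccdc184, Fam184b, Klrk1 and Hs6st2. Likeness was the Euclidean distance between log2(RPKM + 1) values centred on each gene's mean, over 4 libraries and 12842 ranked genes, and is a description in which the genotype difference itself weighs most. Arg1, arginase 1, was nearest at 0.229, against a median distance of 5.25, with 7.94 and 5.20 RPKM in Gata3-KO and 275 and 161 RPKM in Ctrl libraries. Ccdc184 followed at 0.587, with 4.70 and 2.83 RPKM in Gata3-KO and 272 and 120 RPKM in Ctrl libraries. Fam184b lay at 0.80, Klrk1, the NKG2D receptor, at 1.14 and Hs6st2, a heparan sulfate enzyme, at 1.44. Like Ret, Arg1, Ccdc184 and Hs6st2 were higher in Ctrl replicate 1 than in Ctrl replicate 2, by 1.71, 2.26 and 2.69 times, while Fam184b and Klrk1 were not.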

How the data were processed

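RNA of sorted LTi cells was made into Smart-seq2 libraries, which carry no molecular identifiers, per the labels' protocols. Subread and featureCounts and the build mm10 are named in the submitters' processing notes; versions: not given in the sources used here. As the authors deposited them, values are log2(RPKM + 1) with 0.0001 added, 1 column per library, a form worked out from the numbers themselves.

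Whole reads, gene lengths and library totals were recovered from these values. All 19047 genes with reads gave whole reads within 1e-06. Where reads and length shared a factor, the multiple nearest the GENCODE M21 length was taken for 1199 genes with few reads, and the recovered reads made up 99.2% to 99.3% of the totals. RefSeq gave symbols and GRCm38.p6 coordinates (25275 identifiers found). The Gata3-KO libraries were 1.79 times as deep as the Ctrl libraries. The 3 reads that a count of 0 allows were worth 0.123 and 0.125 CPM in Gata3-KO and 0.21 and 0.237 CPM in Ctrl libraries. Floors cover counting error only.

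The test was limma 3.58.1 in R 4.3.3 (trend and robust variance, two-sided) on log2(RPKM + 1), which understates changes of low genes, with Benjamini-Hochberg adjustment over 14313 genes. These had at least 0.5226 CPM in 2 libraries and 15 reads in all. The fit was first tested on simulated data. Alternatives were median-ratio and upper-quartile scaling, limma-voom run on the recovered reads, pseudocount 0.1, no filter, a filter of 5 CPM, a replicate block and leaving out each library. The members and lists were chosen with earlier results of these data known. Named genes are the 9 members, Gata3, up to 4 called and the 3 most abundant genes per list, the 3 neighbours of Ret on each side and the 5 genes most like it. Other genes were named for their role as ligand or marker, Calca, Ramp2, Adcyap1r1 and Plcg1 after their values were seen. A few results are not reported here.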

Additional observations from a re-analysis of the deposited data

How the results depend on the processing

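The Gata3-KO and Ctrl replicates share numbers, but the labels do not say that a number marks a shared animal or day, and the deviations of same-numbered libraries had a correlation of −0.02 over tested genes. The numbers therefore do not pair the libraries. With a replicate block, 1011 genes were called in place of 1279, 14 pathway genes in place of 13, 41 marker genes in place of 43, and Ret lay at −4.75. Among named pathway genes Gna13 (adjusted p = 0.0745 in limma), P2ry1 (0.0582) and Plxnb2 (0.059) were not called with the block, and Gcg (0.0118), Spry2 (0.0254) and Epha2 (0.0368) were.

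The log2 difference of Ret was −5.75 under limma-voom, −6.36 when that was joined to median-ratio scaling and −5.61 with a pseudocount of 0.1, and it kept its sign under every setting run. Leaving out 1 library gave −5.23 to −4.26 for Ret, and 0 to 0 called genes among all tested, among members, in pathway lists and in marker lists. Of all genes, 145 were called (83 higher, 62 lower) with median-ratio and 180 (114, 66) with upper-quartile scaling, 216 (178, 38) under limma-voom, 90 (25, 65) when that was joined to median-ratio scaling, 852 with a pseudocount of 0.1 and 0 without a filter, where 4336 had an unadjusted p under 0.05 in limma. In pathway lists the counts were 1, 1, 1, 1, 6 and 0 in that order and 20 with the filter of 5 CPM. In marker lists they were 11, 14, 22 and 10 for the first 4 and 0 without a filter. Among members 0 were called without a filter and 2 (Ret and Vipr1) with that of 5 CPM. Of the other tested members, Gfra1, Gfra3, Vipr1, Vipr2 and Calcrl kept their signs under the settings that tested them, while sizes moved. Under limma-voom and with a pseudocount of 0.1, Gfra1 lay at 5.81 and 3.04, Vipr1 at 2.02 and 1.94 and Calcrl at −1.92 and −1.65. Ramp1 lay at 0.01 to 0.05 under the other scalings, within its SE, and so had no direction. The filter changes the number of genes adjusted over; other causes were not tested. Limma-voom with median-ratio scaling and the alternatives for marker lists were chosen after seeing the data. Members below about 100 reads in a library are limited by depth there. They were Gfra2, Gfra1, Calcrl and Nmur1, and in both Ctrl libraries also Gfra3 and Vipr1.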

Other observations

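Neurotrophin and axon guidance receptors held 2 genes called higher among 22 tested of 35, a share near the 8.25% of all tested genes. Ephb4, an ephrin receptor, was at 3.76 and 3.96 RPKM in Gata3-KO and 0.0481 and 0.163 RPKM in Ctrl libraries (adjusted p = 0.0209 in limma), and Plxnb2, a semaphorin receptor, at 4.94 and 8.59 RPKM in Gata3-KO and 1.58 and 0.891 RPKM in Ctrl libraries (adjusted p = 0.0463 in limma). Neither passed after median-ratio scaling or without any 1 library. Nrp1, a semaphorin and growth factor co-receptor used to mark LTi cells, was the most abundant, at 20.9 and 24.7 RPKM in Gata3-KO and 45.7 and 18.9 RPKM in Ctrl libraries, which overlapped.

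Ednrb, an endothelin receptor named after its values were seen, had 15 and 24 reads in Gata3-KO and 385 and 27 reads in Ctrl libraries, so its level came almost wholly from Ctrl replicate 1, as that of Nmur1 did from Ctrl replicate 2.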
